A study of Mus musculus with 21 samples.

Results

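Igf2, H19, Plagl1 and 7 further imprinted growth genes were followed across all 8 groups of a mouse embryonic stem cell (ESC) series. The members were taken by symbol and number 10 of the 40838 genes in each count table: Igf2 (gene ID 16002), H19 (14955), Ascl2 (17173), Kcnq1ot1 (63830), Cdkn1c (12577) and Phlda2 (22113) on chromosome 7, Plagl1 (22634) and Hymai (338438) on chromosome 10, Grb10 (14783) on chromosome 11 and Igf2r (16004) on chromosome 17. They were listed with some of their measured values known: the levels of Igf2 and Plagl1 in the chr8A line in both media, and those of Plagl1 in the clones in SL. Differences of Igf2 and Plagl1 with any of those groups on 1 side are therefore given as descriptions, with no p value, as are all differences between media in chr8A and between lines in SL.

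Poly(A)-selected RNA was sequenced from 21 libraries of ESCs, pluripotent cells of the early embryo that can be kept in culture. Every group was grown for 48 h with 0.2 mM pyruvate and 10% serum. The name SL was taken to mean serum plus leukemia inhibitory factor, and SL2i the same medium with an inhibitor of GSK3B and an inhibitor of MEK. One table held SL libraries only, 3 with a vector and 3 with LbNOX, an NADH oxidase of bacterial origin. In the other, chr8A (read here as the control line), SLC16A1 clone 1 and SLC16A1 clone 2 each had 3 libraries in SL, and each had 2 in SL2i. MCT1, the transporter of lactate and pyruvate, is the product of Slc16a1. The sources used here do not give the alteration made in the clones, and each clone name stands for a single clone. The libraries of a group are from the same line, and their spread may be technical, which is all that the p values here measure.

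Imprinted genes are read mainly from 1 parental copy. Igf2 encodes insulin-like growth factor 2, a fetal growth factor read from the paternal copy, and H19 is a non-coding RNA read from the maternal copy of the same domain, where both genes share enhancers. Plagl1 encodes a zinc finger transcription factor that restrains proliferation and is known to act on other imprinted genes, and Hymai is a non-coding RNA that starts with it. Igf2r is the receptor that takes IGF2 up for degradation, and Grb10 is an adaptor that dampens insulin and IGF receptor signalling. Cdkn1c (p57) inhibits cyclin-dependent kinases, Phlda2 restrains placental growth, Ascl2 is a transcription factor of the trophoblast, and Kcnq1ot1 is the paternal antisense RNA that silences genes of their shared domain.

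Libraries held 16521594 to 30008895 counts in the table with LbNOX and 15802072 to 30145771 in SL in the second table. The SL2i libraries held 9784408 to 10908368, so low genes are less precise there. All 10 ESC markers listed had reads in every group, with summed levels of 5077 to 5744 CPM (counts scaled to the same total in every library) in SL and 7431 to 7882 CPM in SL2i. Slc16a1 had reads in every group: in SL its mean was 198 CPM in chr8A, 171 in clone 1 and 93.5 in clone 2, and the SL2i means were 162, 123 and 78.6 CPM. RNA was measured in bulk, so fewer cells with a transcript and less RNA per cell cannot be told apart.

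The start regions of 8 members were found among the RefSeq promoter windows of build GRCm38.p6, in 12 windows of 300 bases, from 250 bases before to 50 after a start. The authors counted on GRCm39, so the windows show sequence only and are not placed on the authors' coordinates. CpG pairs, the sites of DNA methylation in mammals, are in capitals. The windows held 2 to 45 CpG pairs, against a median of 7 over all 32851 windows. The Plagl1 window (chr10:13090582-13090881, plus strand, 26 CpG pairs) is shown because Plagl1 differed most between the clones. It shares 287 bases with the Hymai window, whose start lies 13 bases further on. Igf2 had 4 windows, and the counts do not tell its starts apart. The one richest in CpG pairs (chr7:142658755-142659054, minus strand, 24 pairs) and the poorest (chr7:142666767-142667066, minus strand, 2 pairs) are shown because Igf2 differed most between media in chr8A. Phlda2 (chr7:143502475-143502774, minus strand, 26 pairs) is shown as a gene of the same chromosome that differed between media but not between lines in SL2i.
Plagl1: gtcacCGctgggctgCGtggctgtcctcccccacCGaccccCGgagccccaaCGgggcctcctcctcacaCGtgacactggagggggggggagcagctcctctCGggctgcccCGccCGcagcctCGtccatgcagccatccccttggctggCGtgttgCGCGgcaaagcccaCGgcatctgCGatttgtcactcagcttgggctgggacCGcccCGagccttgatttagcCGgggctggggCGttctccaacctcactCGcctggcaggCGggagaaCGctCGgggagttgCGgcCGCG
Igf2, CpG-rich start: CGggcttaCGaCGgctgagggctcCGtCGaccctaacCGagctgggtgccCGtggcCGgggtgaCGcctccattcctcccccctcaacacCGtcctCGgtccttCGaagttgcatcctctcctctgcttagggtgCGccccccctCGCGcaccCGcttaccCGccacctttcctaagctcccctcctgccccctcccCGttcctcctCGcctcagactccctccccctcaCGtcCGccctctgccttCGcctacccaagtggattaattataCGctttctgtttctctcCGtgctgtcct
Igf2, CpG-poor start: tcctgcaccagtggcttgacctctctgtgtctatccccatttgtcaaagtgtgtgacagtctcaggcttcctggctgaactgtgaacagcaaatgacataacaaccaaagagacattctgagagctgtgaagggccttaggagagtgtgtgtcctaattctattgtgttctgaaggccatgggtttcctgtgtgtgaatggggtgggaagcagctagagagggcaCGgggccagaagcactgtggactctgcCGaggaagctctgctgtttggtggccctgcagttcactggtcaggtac
Phlda2: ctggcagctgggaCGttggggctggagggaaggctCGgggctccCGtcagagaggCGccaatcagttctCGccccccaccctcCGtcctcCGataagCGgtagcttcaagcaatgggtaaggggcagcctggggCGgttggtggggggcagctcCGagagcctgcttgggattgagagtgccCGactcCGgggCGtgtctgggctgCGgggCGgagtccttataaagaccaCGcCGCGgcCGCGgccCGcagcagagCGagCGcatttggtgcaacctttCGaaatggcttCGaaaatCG

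H19 also carries a microRNA, miR-675, inside its transcript. Its mature arms are shown with the seed (bases 2 to 8) in capitals, as RefSeq gives them, since a change of H19 is a change of their precursor. Poly(A) libraries do not measure mature microRNAs, and no level of either arm is given here.
miR-675-5p: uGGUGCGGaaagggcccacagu
miR-675-3p: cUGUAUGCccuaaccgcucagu

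Igf2 was an abundant transcript in SL and nearly absent from chr8A in SL2i, while both clones kept a clear level there. In SL its level was 237, 212 and 235 CPM in the chr8A libraries, 189, 168 and 180 CPM in clone 1, and 130, 140 and 127 CPM in clone 2. In SL2i it was 2.71 and 3.26 CPM in chr8A (28 and 33 reads), 38.5 and 45.3 CPM in clone 1, and 45.1 and 45.7 CPM in clone 2. The order of the group means was chr8A, clone 1 and clone 2 in SL, then the clones in SL2i, then chr8A in SL2i. Only the clones in SL2i, neighbours in that order, overlapped.

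The chr8A level in SL2i was 1.31% of that in SL, a log2 difference of -6.25 ± 0.24 (SE). Igf2 fell by 2.09 ± 0.08 on the log2 scale in clone 1 (adjusted p = 2.43e-20, edgeR's quasi-likelihood test adjusted over all genes) and fell by 1.54 ± 0.08 in clone 2 (adjusted p = 2.5e-17). These left 23.4% and 34.4% of the SL level. In SL2i, Igf2 was 14.1-fold higher in clone 1 than in chr8A (log2 3.81 ± 0.24) and 15.2-fold higher in clone 2 (log2 3.93 ± 0.24). In SL the order was the other way round, with 78.6% of the chr8A level in clone 1 and 58.0% in clone 2. In SL2i the clones differed by 0.11 ± 0.10 on the log2 scale (95% interval -0.09 to 0.31).

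H19 was a low transcript in chr8A and the clones, and it differed between media in opposite directions in chr8A and in the clones. In SL it had 55, 59 and 62 reads in chr8A, 16, 8 and 23 in clone 1, and 14, 25 and 25 in clone 2. In SL2i it had 3 and 13 reads in chr8A, 59 and 74 in clone 1, and 70 and 90 in clone 2, from fewer reads in all. As levels, the 4 clone libraries in SL2i lay at 6.23 to 8.64 CPM, above every other library of the table. H19 rose in SL2i by 2.92 ± 0.30 on the log2 scale in clone 1 (adjusted p = 7.15e-17) and by 3.22 ± 0.27 in clone 2 (adjusted p = 3.79e-21).

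In chr8A the H19 log2 difference between media was -1.57 ± 0.42. It rests on the 3 and 13 reads in SL2i and ranged from -3.00 to -0.88 over the alternatives, with the threshold missed without the library of 3 reads. Against chr8A in SL2i, H19 was 8.54-fold higher in clone 1 (log2 3.09 ± 0.43, adjusted p = 1.8e-11) and 9.89-fold higher in clone 2 (log2 3.31 ± 0.43, adjusted p = 4.71e-13). These rest on the same 3 and 13 reads, and the log2 differences ranged from 2.39 to 4.51 for clone 1 and from 2.60 to 4.72 for clone 2 over the alternatives. In SL its level was below that of chr8A, at 37.7% in clone 1 and 35.7% in clone 2.

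**Figure D1:**
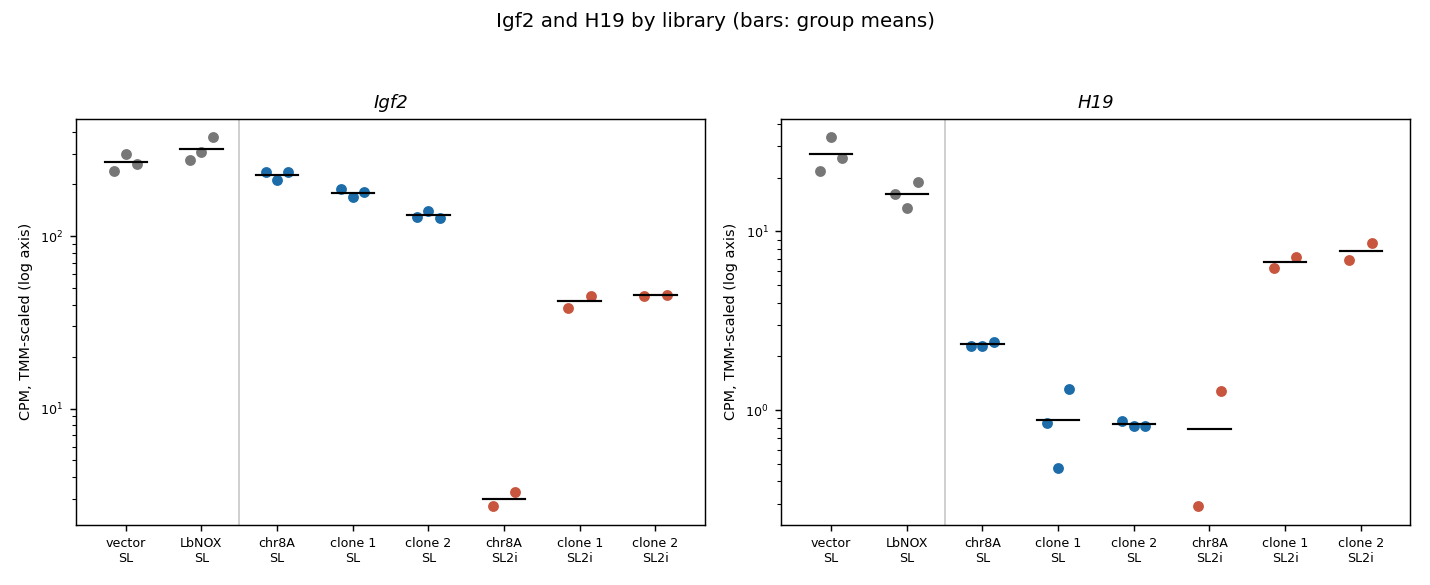
Igf2 (left) and H19 (right) in CPM on a log axis, 1 point per library and a bar at each group mean. The grey points left of the line are the separately normalized LbNOX table. Igf2 in chr8A lies at 2.71 and 3.26 CPM in SL2i and at 38.5 to 45.7 CPM in the clones, and H19 in the clones lies at 6.23 to 8.64 CPM there.

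The balance of the pair within a library does not depend on the scaling between libraries. For each 100 Igf2 reads the SL libraries held 1.03 H19 reads in chr8A, 0.493 in clone 1 and 0.624 in clone 2. In SL2i there were 16.0 in clone 1 (15.95 to 16.16 over its libraries) and 17.2 in clone 2 (15.4 to 18.9). The chr8A value in SL2i, 26.2, comes from 16 H19 and 61 Igf2 reads, and its libraries stood at 10.7 and 39.4. H19 thus took a larger share of the pair's reads in SL2i in all 3 lines, through fewer Igf2 reads in chr8A and through both fewer Igf2 and more H19 reads in the clones.

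Markers of other cell types were also measured in the clones in SL2i. Of all genes, 10.4% were higher and 12.1% lower in clone 1 than in chr8A there, and 9.74% and 10.8% in clone 2. The summed level of the 11 trophoblast markers was 21.7 to 24.1 CPM in chr8A and 37.3 to 43.1 CPM in the clones, with 4 of 7 tested markers higher in each clone (Krt7, Eomes, Gata3, Gcm1) and median log2 differences of 0.94 in clone 1 and 0.86 in clone 2. Tpbpa and Prl3d1, which mark mature trophoblast, had no read in any group. The primitive endoderm list stood at 5.70 to 6.22 CPM in chr8A and 8.78 to 10.8 CPM in the clones, and the mesoderm list at 15.1 to 18.2 and 24.8 to 30.7 CPM. In each clone 1 of 6 tested endoderm markers (Dab2) and 1 of 5 tested mesoderm markers (Bmp4) were higher, and no other tested marker of these 2 lists was called. The median log2 difference of the tested markers was -0.48 in clone 1 and 0.75 in clone 2 for primitive endoderm, and -0.15 and -0.34 for mesoderm. The summed level of the 13 fibroblast markers, led by Fn1, was 3015 to 3204 CPM in chr8A, 2713 to 2808 in clone 1 and 2715 to 2731 in clone 2 in SL2i. Of 10 tested, 2 were lower and none higher in each clone, and Col3a1 and Postn had no read in any SL2i group. In SL the sum was 1275 to 1332 CPM in chr8A and 1120 to 1250 CPM in the clones. Although the sum was higher in SL2i, 8 of the 10 tested markers fell and 2 rose there in each line. Their median log2 difference between media was -3.02 in chr8A, -3.68 in clone 1 and -3.54 in clone 2. Of all genes, 36.8% fell and 36.1% rose in chr8A, 37.1% and 35.9% in clone 1, and 37.2% and 35.8% in clone 2. The part of these cell types in the Igf2, H19 and Cdkn1c results was not tested.

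Plagl1 was higher in SL2i than in SL in every line and lower in the clones than in chr8A in both media. In SL the libraries held 42.3, 38.9 and 45.4 CPM in chr8A, 21.8, 22.3 and 24.9 CPM in clone 1, and 5, 4 and 11 reads in clone 2, a mean of 0.267 CPM. In SL2i they held 391 and 390 CPM in chr8A, 209 and 215 CPM in clone 1, and 41.2 and 43.0 CPM in clone 2. Clone 2 in SL2i overlapped chr8A in SL, and no other neighbours in the order of the 6 groups overlapped.

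In clone 1, Plagl1 stood at 54.5% of the chr8A level in SL and at 54.3% in SL2i, where the log2 difference was -0.88 ± 0.05. Its log2 difference between media was 3.20 ± 0.06 in clone 1 and 3.21 ± 0.05 in chr8A. The media effects of the 2 lines differed by -0.01 ± 0.07 (95% interval -0.15 to 0.14). In clone 2, Plagl1 stood at 0.632% of chr8A in SL and at 10.8% in SL2i, where it was 9.27-fold lower. Its log2 difference between media in clone 2 was 7.31 ± 0.33, from 20 reads over the 3 SL libraries to 864 reads over the 2 SL2i libraries.

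Between the clones in SL2i, 27 of 17178 genes (0.157%) passed the test. Of the 10 members 1 did, Plagl1, at 5.03-fold lower in clone 2 (log2 -2.33 ± 0.07, adjusted p = 3.34e-54). Hymai had an adjusted p of 0.275 in that comparison.

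Hymai lies on the same strand inside Plagl1, so reads of the 2 transcripts cannot be fully separated. It had few reads: 5, 7 and 8 in chr8A in SL, 1, 1 and 0 in clone 1, and 2, 0 and 1 in clone 2. In SL2i it had 40 and 28 reads in chr8A, 13 and 24 in clone 1, and 6 and 5 in clone 2. It passed the test between media in clone 1 (adjusted p = 1.57e-10) and clone 2 (adjusted p = 0.000209). Scaled to library size, the ratio of SL2i to SL was 49.9 (95% exact binomial interval 12.9 to 427, counting error only) in clone 1 and 13.8 (3.65 to 77.2) in clone 2. In SL2i, Hymai differed from chr8A by -2.61 ± 0.60 in clone 2 (adjusted p = 8.82e-05), while clone 1 had -0.83 ± 0.45 (adjusted p = 0.189). Hymai thus lay in the direction of Plagl1 in all of these comparisons. For each 100 Plagl1 reads there were 0.850 Hymai reads in chr8A, 0.884 in clone 1 and 1.27 in clone 2 in SL2i.

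**Figure D2:**
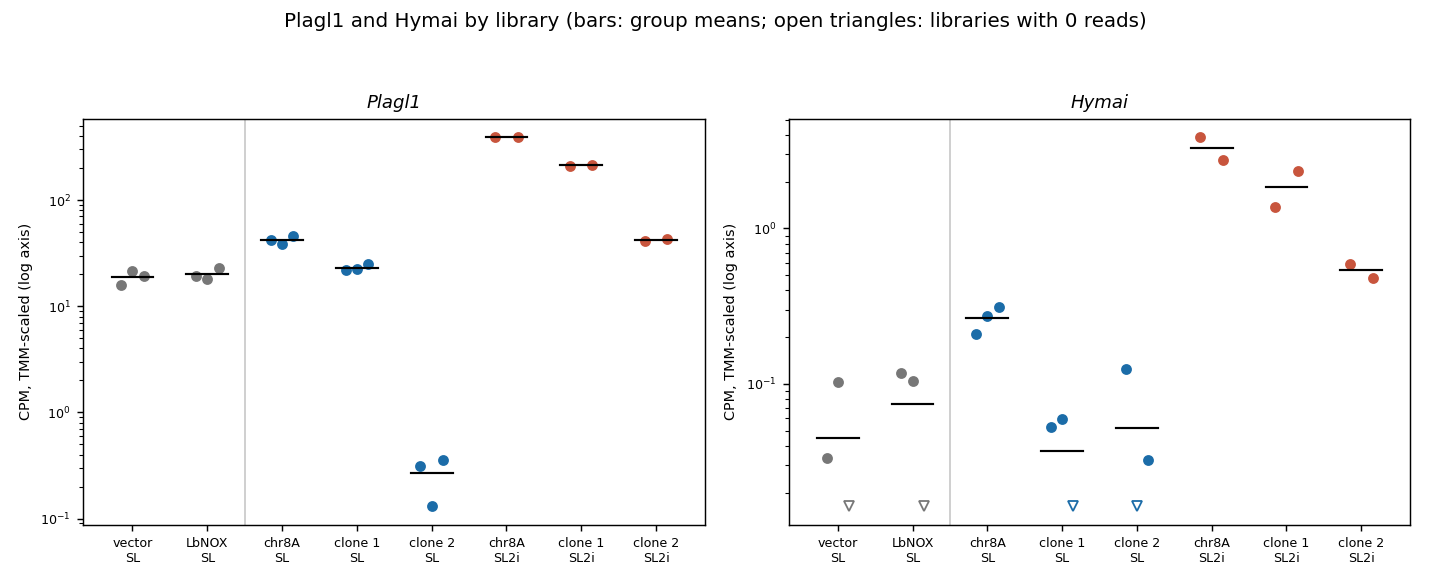
Plagl1 (left) and Hymai (right) in CPM on a log axis, 1 point per library with bars at group means, and open triangles for libraries with 0 reads. Plagl1 in clone 2 rests on 20 reads in SL and stands at 41.2 and 43.0 CPM in SL2i, beside 391 and 390 CPM in chr8A.

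Among the regulators of IGF action, Igf2r moved little and Grb10 moved much between media. Igf2r stood at 206 to 210 CPM in chr8A, 190 to 197 in clone 1 and 188 to 196 in clone 2 in SL, and at 126 and 139, 155 and 154, and 150 and 157 CPM in SL2i. It fell in SL2i by 0.33 ± 0.04 on the log2 scale in clone 1 (adjusted p = 3.57e-12) and by 0.32 ± 0.04 in clone 2 (adjusted p = 3.21e-12), against a chr8A difference of -0.66 ± 0.04. In SL2i it was 1.17-fold higher in clone 1 than in chr8A (adjusted p = 8.21e-05) and 1.16-fold higher in clone 2 (adjusted p = 0.000213). The clone 2 call was lost without chr8A replicate 1 (adjusted p = 0.0683).

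In SL Grb10 stood at 667 to 674 CPM in chr8A, 816 to 839 in clone 1 and 746 to 788 in clone 2. In SL2i all 6 libraries lay at 124 to 156 CPM, and the lines overlapped. Grb10 fell by 2.67 ± 0.09 on the log2 scale in clone 1 (adjusted p = 2.6e-10) and fell by 2.49 ± 0.08 in clone 2 (adjusted p = 4.19e-10). Its SL2i differences from chr8A were -0.12 ± 0.10 in clone 1 (95% interval -0.35 to 0.11) and -0.04 ± 0.10 in clone 2 (-0.26 to 0.19). Without chr8A replicate 1 in SL2i, Grb10 was called lower in both (log2 -0.26 and -0.18, adjusted p = 0.00103 and 0.0299).

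Cdkn1c and Phlda2, neighbours in the domain of Kcnq1ot1, fell steeply in SL2i in both clones. Cdkn1c stood at 69.1 to 80.4 CPM in the 9 SL libraries, and at 2.90 and 1.97 CPM in chr8A, 6.23 and 5.46 in clone 1, and 7.43 and 6.15 in clone 2 in SL2i. It fell by 3.74 ± 0.14 on the log2 scale in clone 1 (adjusted p = 1.48e-58) and fell by 3.40 ± 0.13 in clone 2 (adjusted p = 9.57e-57), against -4.86 ± 0.20 in chr8A. Every clone library in SL2i lay above both chr8A libraries. The clone levels there were 2.38-fold (adjusted p = 9.84e-06) and 2.77-fold (adjusted p = 8.36e-08) that of chr8A.

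Phlda2 stood at 60.3 to 77.1 CPM in the SL libraries and at 4.15 to 6.34 CPM in SL2i, where the lines overlapped. It fell by 3.795 ± 0.15 on the log2 scale in clone 1 (adjusted p = 8.76e-57) and fell by 3.78 ± 0.15 in clone 2 (adjusted p = 2.51e-57), beside a chr8A difference of -3.59 ± 0.15. In SL2i its clone differences from chr8A had 95% intervals of -0.37 to 0.45 and -0.40 to 0.42. Phlda2 therefore differed between media as Cdkn1c did, without the higher level in the clones that Cdkn1c showed in SL2i.

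With all libraries fitted, Ascl2 and Kcnq1ot1 passed no test between media in the clones or between lines in SL2i, though some alternatives gave calls. Ascl2 was low, at 4.27 to 6.91 CPM in SL, and at 3.58 and 2.96 CPM in chr8A, 6.23 and 3.804 in clone 1 and 5.35 and 5.09 in clone 2 in SL2i. Its SL2i difference from chr8A was 0.60 ± 0.27 in clone 1 (adjusted p = 0.103) and 0.67 ± 0.27 in clone 2 (adjusted p = 0.0618). The threshold was passed for clone 1 without its replicate 2 in SL2i (adjusted p = 0.0236) and for clone 2 with only the groups compared (adjusted p = 0.0460). Between media in clone 1, Ascl2 passed without SL2i replicate 1 (log2 -0.65, adjusted p = 0.0340). Kcnq1ot1 spread widely within SL, at 12.7, 15.3 and 24.7 CPM in chr8A and 11.8 to 18.4 CPM in the clones. It lay at 17.3 to 22.2 CPM in SL2i, and within each clone every SL2i library lay above every SL library. The media differences were 0.51 ± 0.31 (adjusted p = 0.17) in clone 1 and 0.54 ± 0.31 (adjusted p = 0.149) in clone 2. With only the groups compared, Kcnq1ot1 passed in both (adjusted p = 7.26e-05 and 3.68e-06). It lies antisense within Kcnq1, and the sources used here do not give the strand setting of the counts.

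**Figure D3:**
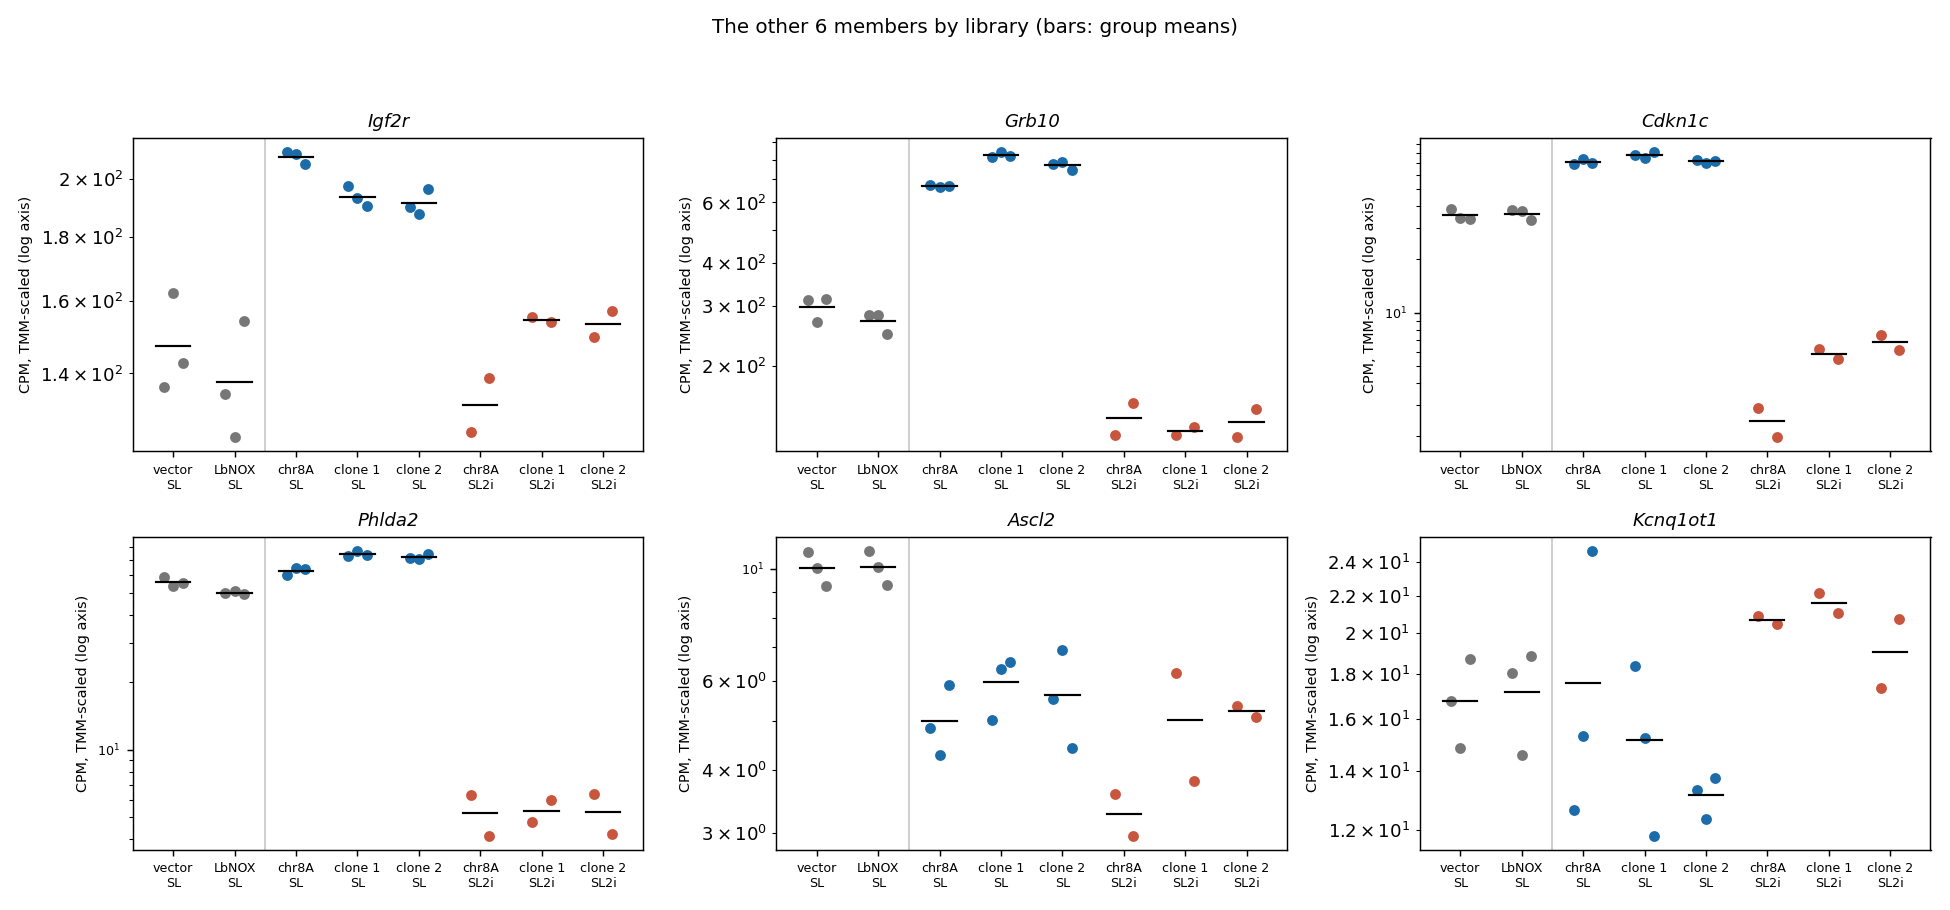
The other 6 members in CPM on log axes that differ between panels, 1 point per library with bars at group means. Cdkn1c, Phlda2 and Grb10 lie far lower in SL2i, where Cdkn1c is higher in both clones than in chr8A, while Ascl2 and Kcnq1ot1 overlap between many groups.

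Levels can be set beside each other between genes only per length. In SL the highest of the members in chr8A, in CPM per kilobase, was Grb10 (128), followed by Phlda2 (58.1), Igf2 (39.9), Cdkn1c (35.7), Igf2r (23.3) and Plagl1 (7.91). In SL2i the order in chr8A was led by Plagl1 (73.2), followed by Grb10 (26.9), Igf2r (14.8), Phlda2 (4.81), Ascl2 (2.03), Cdkn1c (1.22), Hymai (0.656), Igf2 (0.523), H19 (0.344) and Kcnq1ot1 (0.248). In clone 2 in SL2i, Grb10 (26.2), Igf2r (17.2), Igf2 (7.96) and Plagl1 (7.89) led.

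Across all genes 72.8% passed the test between media in chr8A, 73.0% in clone 1 and 73.1% in clone 2, so a call between media is the usual case. Of the 10 members 9 were called in chr8A (2 higher, 7 lower), and 8 in each clone (3 higher, 5 lower). Over all genes the higher and lower calls were 36.1% and 36.8% in chr8A, 35.9% and 37.1% in clone 1, and 35.8% and 37.2% in clone 2. The median log2 difference of the members was -1.11 in chr8A, -0.29 in clone 1 and -0.21 in clone 2, and that of all genes tested lay near 0 in each. The chr8A comparison was used in listing the members, and nothing is read from its count. The counts in the clones include Plagl1, whose SL levels there were known, so its calls are a description.

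In SL2i 22.4% of all genes differed between clone 1 and chr8A, and 20.6% between clone 2 and chr8A. Of the members 5 of 10 did in clone 1 (4 higher, 1 lower) and 6 of 10 in clone 2 (4 higher, 2 lower). Over all genes the higher and lower calls were 10.4% and 12.1% for clone 1, and 9.74% and 10.8% for clone 2. Igf2, H19, Igf2r and Cdkn1c were higher and Plagl1 lower in both clones. These comparisons share the chr8A libraries, whose Igf2 and Plagl1 levels were known, and the calls of those 2 members are a description. In SL the background was 16.6% for clone 1 and 26.9% for clone 2, with 8 and 7 members called, and 4.40% between the clones, with 2 called (Igf2 and Plagl1, both lower in clone 2). Without clone 1 replicate 3 the count for clone 1 in SL was 5. The SL comparisons were used in listing the members, and nothing is read from these counts.

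**Figure D4:**
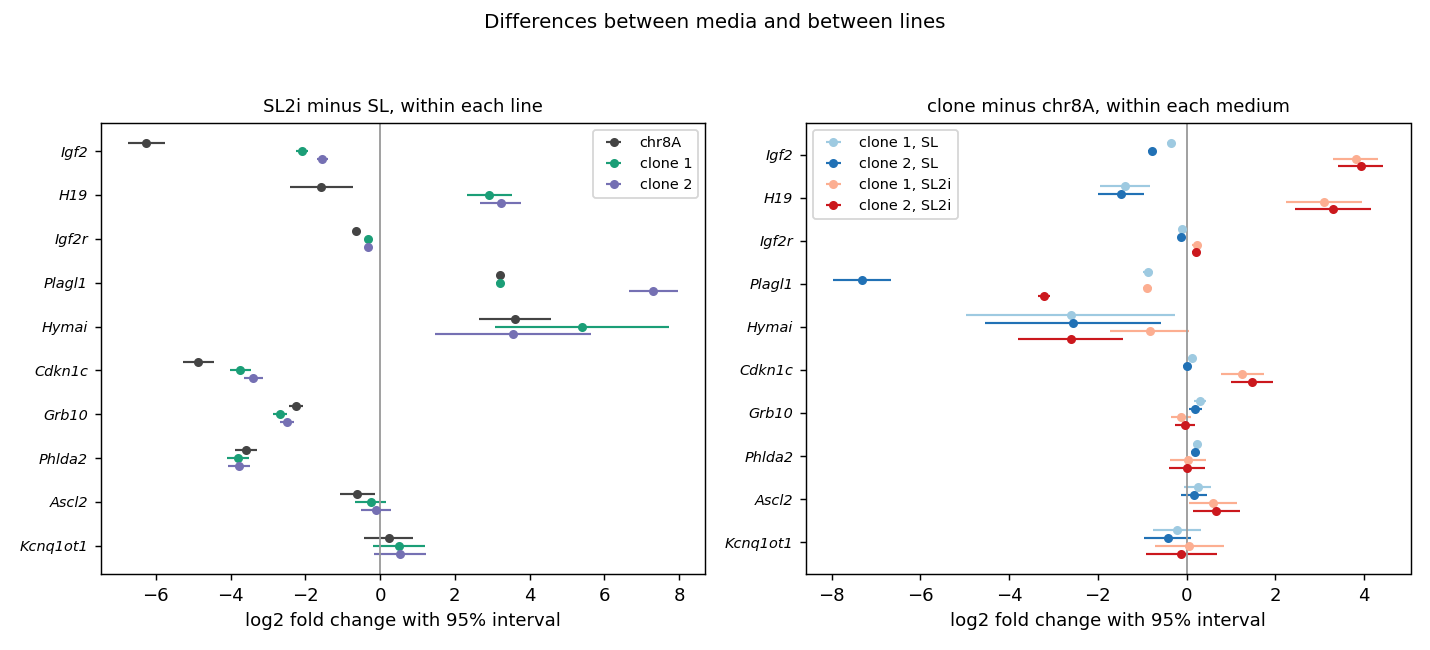
Log2 fold changes of the 10 members with 95% intervals, SL2i minus SL within each line (left) and clone minus chr8A within each medium (right). Igf2, H19 and Cdkn1c stand to the right of 0 for both clones in SL2i, and Plagl1 to the left in both media.

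The LbNOX and vector libraries compare cells with and without the NADH-oxidizing enzyme, both in SL. With edgeR none of the 9 members tested passed, and 6 of 16119 genes (0.0372%) did. Hymai had too few reads to be tested, with 3 reads in the vector and 6 in the LbNOX libraries. All 9 members tested, H19 and Phlda2 among them, had an adjusted p of 0.9997.

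H19 stood at 21.7, 33.6 and 25.6 CPM in the vector and at 16.2, 13.6 and 19.004 CPM with LbNOX, and the groups did not overlap. The log2 difference was -0.72 ± 0.18. It passed the threshold with DESeq2 (adjusted p = 0.00124), with no filter on low counts (adjusted p = 1.36e-09), and with vector replicate 2 and LbNOX replicate 3 left out together (adjusted p = 0.000231). It did not pass when any 1 library was left out.

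Igf2 stood at 239, 302 and 264 CPM in the vector and at 276, 306 and 376 CPM with LbNOX, and the groups overlapped. Its log2 difference was 0.25 ± 0.14, with an adjusted p of 0.0246 when the same 2 libraries were left out. Those 2 libraries held the highest Igf2, H19, Plagl1 and Igf2r levels of their groups. They were picked after the data were seen, so the H19 and Igf2 results without them are a description only. H19 reads per 100 Igf2 reads were 9.94 in the vector (9.09 to 11.1) and 5.07 with LbNOX (4.44 to 5.88). Phlda2 stood at 53.7 to 59.0 CPM in the vector and 49.8 to 51.2 CPM with LbNOX, a log2 difference of -0.16 ± 0.06. The other 6 members tested had differences of -0.14 to 0.09, all with 95% intervals that held 0.

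Of all genes tested, 37.1% fell and 35.9% rose in SL2i in clone 1, and 37.2% and 35.8% in clone 2, with medians near 0. In the IGF pathway, of 9 tested ligand, receptor and adaptor genes, 8 fell and 1 rose in each clone, with a median log2 difference of -2.08 in clone 1 and -2.01 in clone 2. Igf1r, the receptor that signals for IGF2, fell by 1.17 ± 0.07 in clone 1 and fell by 1.08 ± 0.07 in clone 2. Of 10 tested genes for IGF binding proteins and their proteases, clone 1 had 7 that fell and 2 that rose, and clone 2 had 7 and 3. Igfbp4 had log2 differences of -4.33 ± 0.31 and -4.004 ± 0.30.

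The genes for proteins that bind IGF2 mRNA did not all share that direction. Igf2bp2 rose in SL2i by 1.90 ± 0.04 in clone 1 and 1.98 ± 0.04 in clone 2, Igf2bp3 rose by 0.43 ± 0.04 and 0.48 ± 0.04, and Igf2bp1 fell, with -0.22 ± 0.03 and -0.28 ± 0.03. Lin28b, which blocks let-7 maturation, had log2 differences of -3.45 ± 0.12 and -3.54 ± 0.12. Beside Cdkn1c, its relative Cdkn1a (p21) rose by 1.91 ± 0.05 in clone 1 and 2.07 ± 0.04 in clone 2. Of the 6 other cell cycle inhibitors tested, 4 rose in each clone. Cdkn2b (p15) fell by 1.08 ± 0.22 in clone 1 and fell by 0.67 ± 0.22 in clone 2, and Cdkn1b (p27) fell by 0.16 ± 0.07 in clone 1.

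Of 27 other imprinted genes tested, clone 1 had 20 that fell and 1 that rose in SL2i, and clone 2 had 19 and 2. The medians were -1.69 and -1.65. Of all genes, 37.1% fell and 35.9% rose in clone 1, and 37.2% and 35.8% in clone 2. Magel2, of the Prader-Willi domain, had -4.65 ± 0.56 and -4.57 ± 0.50. In SL2i against chr8A, 5 of the 27 were higher and 5 lower in clone 1, and 4 higher and 5 lower in clone 2, against 10.4% higher and 12.1% lower of all genes in clone 1, and 9.74% and 10.8% in clone 2. Peg3, a zinc finger gene read from the paternal copy, had log2 differences of -2.13 ± 0.07 and -2.27 ± 0.07 there, and Usp29 of the same domain had -2.06 ± 0.32 and -2.39 ± 0.34. The paternally read Peg3 and Igf2 thus lay on opposite sides of chr8A in both clones.

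Neighbours of the members in the genome were compared between lines in SL2i, where 22.4% of all genes were called for clone 1 and 20.6% for clone 2. Of 16 tested neighbours of the chromosome 7 domains, 1 was higher and 2 lower in each clone, with Tnfrsf22 at -0.37 ± 0.12 and -0.50 ± 0.12 on the log2 scale. Dhcr7 had -0.36 ± 0.07 in clone 1 and -0.34 ± 0.07 in clone 2. Of 8 neighbours of Plagl1, 1 was lower in clone 1 (Aig1, -1.09 ± 0.26) and none passed in clone 2. Phactr2, beside Plagl1, differed by -0.27 ± 0.15 in clone 1 and -0.06 ± 0.15 in clone 2 (adjusted p = 0.204 and 0.827).

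Genes that set, keep or erase imprints differed between media and lines. Of 18 listed, 10 rose in SL2i and 7 fell in clone 1, with 9 and 7 in clone 2. Of all genes, 35.9% rose and 37.1% fell in clone 1, and 35.8% and 37.2% in clone 2. Among the 18, Dnmt3b, a de novo DNA methyltransferase, had -2.43 ± 0.03 and -2.57 ± 0.03. Against chr8A in SL2i, 10 were higher and 3 lower in clone 1, and 9 higher and 3 lower in clone 2, against 10.4% higher and 12.1% lower of all genes in clone 1, and 9.74% and 10.8% in clone 2. Dnmt3l, a cofactor of de novo methylation, was higher by 0.96 ± 0.04 and 0.92 ± 0.04. Dppa3, which protects imprints in the zygote, differed by -1.27 ± 0.11 and -1.07 ± 0.11. DNA methylation itself and the parental origin of the reads were not analysed here.

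The genes whose levels followed those of the members most closely over the 15 libraries of the chr8A and clone table were found by Pearson correlation of log2 CPM. For Igf2 they were Actn4 (0.990), Tmprss2 (0.989) and Susd4 (0.988). For H19 they were Cdc42ep4 (0.956), Rbpj (0.952) and Aire (0.941), and for Plagl1 Gng12 (0.928), Kirrel (0.904) and Csnk1e (0.901). The 15 libraries share 2 media and 3 lines, so these values describe the same few groups. Between members, Igf2 and H19 had 0.05, Igf2 and Plagl1 -0.55, and Phlda2 and Grb10 0.99.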

How the data were processed

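Gene-level RNA was measured in 21 libraries of mouse ESCs in 8 groups. Raw counts of reads for each gene were deposited in 2 tables, which the authors made with DRAGEN 3.10 and featureCounts of Subread on GRCm39, per the submitters' processing notes. Per the labels, a stranded poly(A) kit was used on 500 ng of RNA (RIN at least 9.3, 8 PCR cycles), and the sources used here do not give the strand setting of the counts. The readings of SL, SL2i and chr8A follow the labels' protocol and usage in the field.

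The 2 tables were fitted separately in R 4.3.3 with edgeR 4.0.16 (filterByExpr with a minimum count of 10, TMM, robust quasi-likelihood F test): 6 libraries and 16119 genes in one, 15 libraries and 17178 genes in the other. P values were adjusted by Benjamini-Hochberg over all genes of a comparison, with calls at an adjusted p under 0.05. Errors of log2 fold changes are standard errors from the fitted weights and the quasi-dispersion, and levels are TMM-scaled CPM. The errors were checked on simulated data, for small changes in genes above a floor of expression. That check does not cover H19 and Hymai in the chr8A and clone table, or the largest changes of Igf2 and Plagl1.

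The members and gene lists were chosen with earlier results of these data known. Named were the members and, among the symbols ranked, the 3 genes most correlated with each of Igf2, H19 and Plagl1. Also named were up to 2 called genes of largest change per list and comparison whose mean reached 1 log2 CPM. A few were set by name. Dnmt3b in clone 1 and the cell type markers named fall outside that rule and were picked with their values in view. Alternatives were RLE factors, no filter, 1 CPM in 2 libraries, DESeq2 1.42.0, a replicate block, only the groups compared, and each library left out. After the data were seen, DESeq2 was run without independent filtering, since its default gave no adjusted p for most genes between the clones in SL2i, 2 LbNOX table libraries were left out together, and the repeated fits were limited to values given in the text. Promoter and microRNA sequences are from RefSeq on GRCm38.p6, which is older than GRCm39.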

Additional observations from a re-analysis of the deposited data

Results flagged for a closer look

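An interaction of medium and line, fitted on the log2 scale, was called for 5 of 10 members with clone 1 and 5 of 10 with clone 2. Igf2, H19, Igf2r and Cdkn1c were called with both, Grb10 with clone 1 only and Plagl1 with clone 2 only. Across all genes the interaction passed the threshold for 17.0% with clone 1 and 16.9% with clone 2. The chr8A libraries enter both interactions, and their Igf2 and Plagl1 levels were known when the members were listed. The SL levels of Plagl1 in the clones were known too. The interaction calls of Igf2 and Plagl1 are therefore a description.

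Igf2 fell less in the clones than in chr8A, with an interaction of 4.16 ± 0.25 (SE) for clone 1 and 4.71 ± 0.25 for clone 2. For H19, which rose in the clones, it was 4.49 ± 0.52 and 4.79 ± 0.50, and the chr8A side rests on 16 reads in SL2i. For Cdkn1c it was 1.12 ± 0.25 and 1.46 ± 0.24, and for Igf2r 0.33 ± 0.06 and 0.34 ± 0.06. For Grb10 it was -0.42 ± 0.12 with clone 1, a call that was lost in 8 of the 10 fits that each left out 1 library. For Plagl1 it was 4.10 ± 0.33 with clone 2, whose SL side rests on 20 reads.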

How the results depend on the processing

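Of 1085 repeated values of single members, 1002 kept their direction and side of the threshold, 32 lost it, 12 gained it and 39 changed sign. The values that changed sign had not passed the test. Among LbNOX differences they were Ascl2 (0.0012 with no filter, 0.0052 with the replicate block, 0.0398 with 2 libraries left out, -0.0598 to 0.0595 with 1 left out), Kcnq1ot1 (-0.11 with 2 left out, -0.0419 to 0.14), Plagl1 (-0.0340 to 0.20) and Cdkn1c (-0.0213 to 0.0801). With 1 library left out, Ascl2 ranged from -0.65 to 0.0608 between media in clone 1, from -0.29 to 0.10 in clone 2 and from -0.0504 to 0.34 for clone 2 in SL. Cdkn1c for clone 2 in SL ranged from -0.0166 to 0.0337 (-0.0020 with 1 CPM in 2 libraries), and Kcnq1ot1 from -0.39 to 0.11 for clone 1 in SL and from -0.25 to 0.0042 for clone 2 in SL2i. In SL2i Grb10 ranged from -0.26 to 0.0477 for clone 1 and -0.18 to 0.13 for clone 2, and Phlda2 from -0.22 to 0.38 and -0.31 to 0.35. The Plagl1 interaction with clone 1 ranged from -0.0505 to 0.0623 (0.0044 with 1 CPM in 2 libraries, 0.0054 with only the groups compared).

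Members called between LbNOX and vector numbered 0 with edgeR, 1 with no filter, 1 with DESeq2 and 2 with 2 libraries left out. Between the clones in SL they numbered 2, and 4 with only the groups compared (Cdkn1c and Grb10 added). For clone 1 in SL they numbered 8, and 5 to 7 with 1 library left out. Genes called for LbNOX went from 6 to 24 with no filter, 15 with DESeq2, 3 with the replicate block, 49 with 2 libraries left out and 0 to 13 with 1 left out. Between the clones they went from 756 to 420 (DESeq2) and 1223 (only the groups compared) in SL, and from 27 to 17 and 11 in SL2i, with 371 to 603 and 16 to 40 with 1 library left out. The cause was not tested.

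No clear pairing by replicate number was seen. Correlations of same-numbered deviations were -0.506 to 0.392 in the LbNOX table and -0.0735 to 0.113 in the other. In 4 pairs of SL groups with 3 numbers, 1 number in all correlated best with itself. Between SL2i groups, with 2 libraries each, both numbers give the same value (0.0358 to 0.0762), so the check cannot settle pairing there. The replicate block changed no member's call. Depth limits H19 in chr8A in SL2i, Hymai throughout, and Plagl1 in clone 2 in SL.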
